A study of Saccharomyces cerevisiae with 7 samples.

Results

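The comparison described here set Δ*fpr3*Δ*fpr4* yeast against Δ*fpr4* yeast, so that loss of *FPR3* was read in cells that lack *FPR4* in both libraries. Its members were all genes with more than 5 counted reads in the 2 libraries together, which left 4758 of the 5110 genes listed. The libraries came from an RNA-seq survey of *Saccharomyces cerevisiae* with 1 library per genotype, made from rRNA-depleted RNA of single-colony cultures at midlog phase in rich YPD medium. According to the methods, the Δ*fpr3*Δ*fpr4* strain was made from a Δ*fpr3* collection strain by replacing *FPR4* with a nourseothricin marker, while Δ*fpr4* is a single-gene deletion strain from a purchased collection. Both strains derive from BY4741, a MATa laboratory strain. The Δ*fpr4* strain is therefore not the parent of the double mutant, and *FPR3* loss, strain history and culture cannot be told apart with 1 library each. The study also describes Δ*fpr3*Δ*fpr4* yeast as slow growing and open to suppressor mutations. Libraries of Δ*fpr3* and Δ*sir2* yeast from the same survey were read as further values beside the comparison, and the wild-type library was not used.

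Fpr3 and Fpr4 are nucleolar paralogs that join a nucleoplasmin-like, histone-binding region to a prolyl isomerase domain of the FKBP family, the enzymes that turn peptide bonds before proline. The nucleolus is where rRNA is transcribed and where pre-ribosomes begin to assemble with the help of many assembly factors. In yeast, the genes of these factors are known to be expressed together and often carry the promoter motifs PAC and RRPE, while many genes of amino acid synthesis carry sites for the activator Gcn4.

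The Δ*fpr3*Δ*fpr4* library held 1009336 counted reads and the Δ*fpr4* library 1150091, with a median per gene of 46 reads in Δ*fpr3*Δ*fpr4*, against 52 reads in Δ*fpr4*. A gene at 0 reads could have held up to 3 reads, which is 0.000297% of the Δ*fpr3*Δ*fpr4* total and 0.000261% of the Δ*fpr4* total. Levels are given as reads per kilobase of gene, scaled to the library's counted reads (RPKM). A log2 ratio is that of RPKM plus 1, Δ*fpr3*Δ*fpr4* over Δ*fpr4*. Bracketed intervals are exact 95% binomial intervals of the log2 ratio of read shares, without the added 1. They cover counting error only, and reads of a PCR library are not independent molecules. A gene was called when its reads passed a chi-square test between the libraries at an adjusted p (Benjamini-Hochberg) of 0.05 and its ratio reached 1.3-fold. Such a test compares 2 libraries and not 2 genotypes.

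The deleted genes matched the labels. *FPR3* (YML074C, sacCer3 chrXIII:120089-121324, minus strand) had 0 reads in Δ*fpr3*Δ*fpr4*, against 196 reads and an RPKM of 138 in Δ*fpr4*. Taken at the limit of 3 reads, its level was at least 57.3-fold lower in Δ*fpr3*Δ*fpr4*. *FPR4* (YLR449W, chrXII:1030834-1032012, plus strand) had 0 reads in both libraries, and so did *LEU2*, *URA3* and *MET17*, which are deleted in BY4741. *HIS3*, of which BY4741 lacks an internal part, had 38 reads in Δ*fpr3*Δ*fpr4*, against 35 in Δ*fpr4*. *SIR2*, which should be intact, had 58 reads in Δ*fpr3*Δ*fpr4*, against 73 in Δ*fpr4*. Of the alpha-cell genes, only *SAG1* had more than 5 reads in the 2 libraries together.

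In all, 298 genes were called, which is 6.26% of those tested. Of these, 171 were higher in Δ*fpr3*Δ*fpr4* (3.59% of tested genes) and 127 were lower (2.67%). Higher calls made up 57.4% of calls (95% Wilson interval 51.7% to 62.9%). This interval counts genes as independent draws, which genes read in the same libraries are not, so it cannot show a tilt between the genotypes. The split also varied with the rule. It was 882 higher and 827 lower at 1.3-fold with no test on reads. With halved reads it was 23 and 15, and with edgeR's test 5 and 6, both described below. The median log2 ratio of all tested genes was 0.01, and the middle 50% of genes lay between -0.26 and 0.28. Most calls were small: the median called gene was 1.79-fold higher or 1.73-fold lower, and 107 of the 298 passed 2-fold. In RNA from whole cultures, a change in the share of cells that express a gene and a change in its RNA per cell cannot be told apart.

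The spread over all genes was wider than counting error. The median chi-square of a tested gene was 1.23, against 0.455 for counting error alone, and 22.7% of tested genes had an unadjusted p under 0.05. Even counts were also more frequent than odd ones among genes with 1 to 20 reads, at 56.6% in Δ*fpr3*Δ*fpr4*, against 56.9% in Δ*fpr4*. With all reads halved, as if both reads of each pair had been counted, 38 genes stayed called, 23 of them higher and 15 lower. With edgeR's exact test and an assumed biological coefficient of variation of 0.1, 11 genes were called. Among these were *GCV2*, *IZH4*, *ARG7* and *PEX27*, higher in Δ*fpr3*Δ*fpr4*, and *FPR3*, *LCL2*, *YAP3*, *MFG1*, *COS8* and *RPL9B*, lower in Δ*fpr3*Δ*fpr4*. Only some of the genes named below that remained called with halved reads are pointed out. A gene without such a statement may have kept or lost its call.

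**Figure D1:**
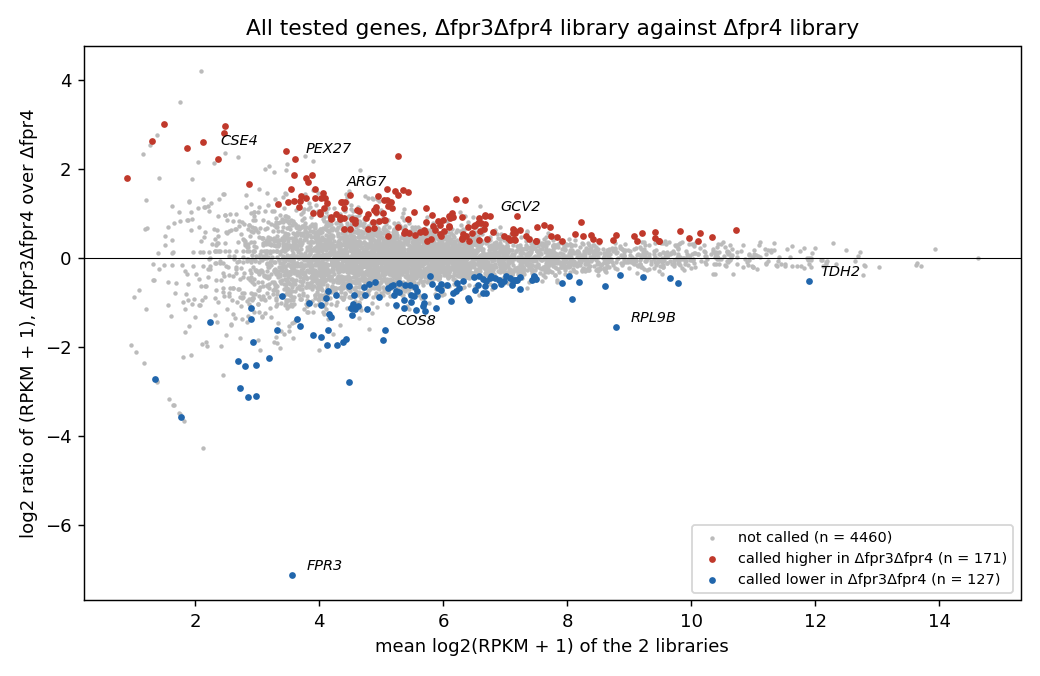
Each point is 1 of the 4758 tested genes, with its mean log2(RPKM + 1) in the 2 libraries on the x axis and its log2 ratio, Δ*fpr3*Δ*fpr4* over Δ*fpr4*, on the y axis. Red points are the 171 genes called higher in Δ*fpr3*Δ*fpr4* and blue points the 127 called lower, and the ratios of weakly expressed genes scatter widest.

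Calls among the factors that assemble ribosomes were all higher in Δ*fpr3*Δ*fpr4*. Of 150 tested assembly factors, 21 were called higher in Δ*fpr3*Δ*fpr4* and 0 lower, a share of 14% against 3.59% of all tested genes. Their median log2 ratio was 0.23, against 0.01 for all tested genes, and 124 of the 150 ratios lay above 0. Among the 80 factors of the large subunit, 13 were called higher, with a median of 0.27. Among the 70 of the small subunit and the 90S pre-ribosome, 8 were called higher, with a median of 0.21.

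Promoter stretches of assembly factors are shown because PAC and RRPE are the letters these genes are known to share. The motifs were chosen with the values known and searched on both strands within 250 bases before the start codon, PAC as CGATGAG and RRPE as AAAAATTTT, which cannot overlap each other, while the Gcn4 core used further on can share end letters with either. The sequences were read from the RefSeq assembly R64, in the direction of the gene, with the motif in capitals.

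*KRI1* (chrXIV:55987-56015, minus strand): gtcatcggttAAAATTTTTcaaatatatc
*IPI1* (chrVIII:276635-276663, plus strand): aggccatcggAAAATTTTTccaccagaaa
*DBP7* (chrXI:487496-487522, minus strand): gaaaaatttgCGATGAGcttaggaaaa
*NOP53* (chrXVI:277659-277687, minus strand): aattccatcaAAAAATTTTccgtgcccga
*BFR2* (chrIV:1059498-1059526, plus strand): tggAAAATTTTTcaatacgCGATGAGatg

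The RRPE letters stood before *KRI1*, *IPI1* and *NOP53*, the PAC letters before *DBP7*, and both before *BFR2*. Of the 8 called assembly factors named by rule, 7 held PAC or RRPE letters, and *TMA16* held neither. Of the 21 assembly factors called higher, 61.9% held PAC and 76.2% held RRPE. Of all 150 tested assembly factors, 64.7% held PAC and 62% held RRPE. Over all 4739 tested genes with a full window, 7.2% held PAC and 7.85% held RRPE. Among all 170 such genes called higher in Δ*fpr3*Δ*fpr4*, 12.9% (22 genes) held PAC and 18.2% (31 genes) held RRPE. The 21 assembly factors are part of these and made up 13 of the 22 and 16 of the 31. Among the 127 called lower, 2.36% held PAC and 3.94% held RRPE. These matches are descriptions of the letters, not of binding.

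*KRI1*, an early small-subunit assembly factor, had 45 reads (RPKM 25.1) in Δ*fpr3*Δ*fpr4*, against 19 reads (RPKM 9.3) in Δ*fpr4*. Its log2 ratio was 1.34 (interval 0.63 to 2.29). *UTP4*, a subunit of the small-subunit processome, had 170 reads in Δ*fpr3*Δ*fpr4*, against 116 in Δ*fpr4*, a log2 ratio of 0.73. The small-subunit factors *BFR2* and *PNO1* had log2 ratios of 0.80 each. The differences in this group thus ran from large in a weakly expressed gene to under 2-fold in the others.

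In the large-subunit group, *TMA16* had 34 reads in Δ*fpr3*Δ*fpr4*, against 14 in Δ*fpr4*, a log2 ratio of 1.43 (interval 0.53 to 2.48). *IPI1*, which acts in removing a spacer from the rRNA precursor, had 53 reads in Δ*fpr3*Δ*fpr4*, against 27 in Δ*fpr4*, a log2 ratio of 1.13 (interval 0.47 to 1.89). The helicase gene *DBP7* had 68 reads in Δ*fpr3*Δ*fpr4*, against 41 in Δ*fpr4*, a log2 ratio of 0.88. *NOP53* codes for a large-subunit assembly factor that is also a known partner of Fpr3 and Fpr4. It had 118 reads (RPKM 85.5) in Δ*fpr3*Δ*fpr4*, against 73 reads (RPKM 46.4) in Δ*fpr4*, a log2 ratio of 0.87 (interval 0.45 to 1.32, exact binomial test, adjusted p = 0.00123). With halved reads, 2 of the 21 genes stayed called, *BRX1* and *NOC2* of the large subunit, named here after their values were seen, and with the assumed variation of edgeR 0 of the 21 did.

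The other libraries of the survey place these levels. The median RPKM of the 150 assembly factors was 72.6 in Δ*fpr3*Δ*fpr4*, 73.1 in Δ*fpr3*, 76.8 in Δ*sir2* and 60.6 in Δ*fpr4*. All 21 called factors had a higher RPKM in Δ*fpr3* and in Δ*sir2* than in Δ*fpr4*, though they were picked for being low in Δ*fpr4* relative to the double mutant. Their level was nearer to that of Δ*fpr3*Δ*fpr4* than to that of Δ*fpr4* for 19 genes in Δ*fpr3* and for 18 in Δ*sir2*. By the same rule, Δ*fpr3*Δ*fpr4* against Δ*fpr3* gave 1 assembly factor higher and 14 lower, with a median log2 ratio of -0.07. That comparison shares the Δ*fpr3*Δ*fpr4* library, and 9.99% of its 4757 tested genes were called.

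**Figure D2:**
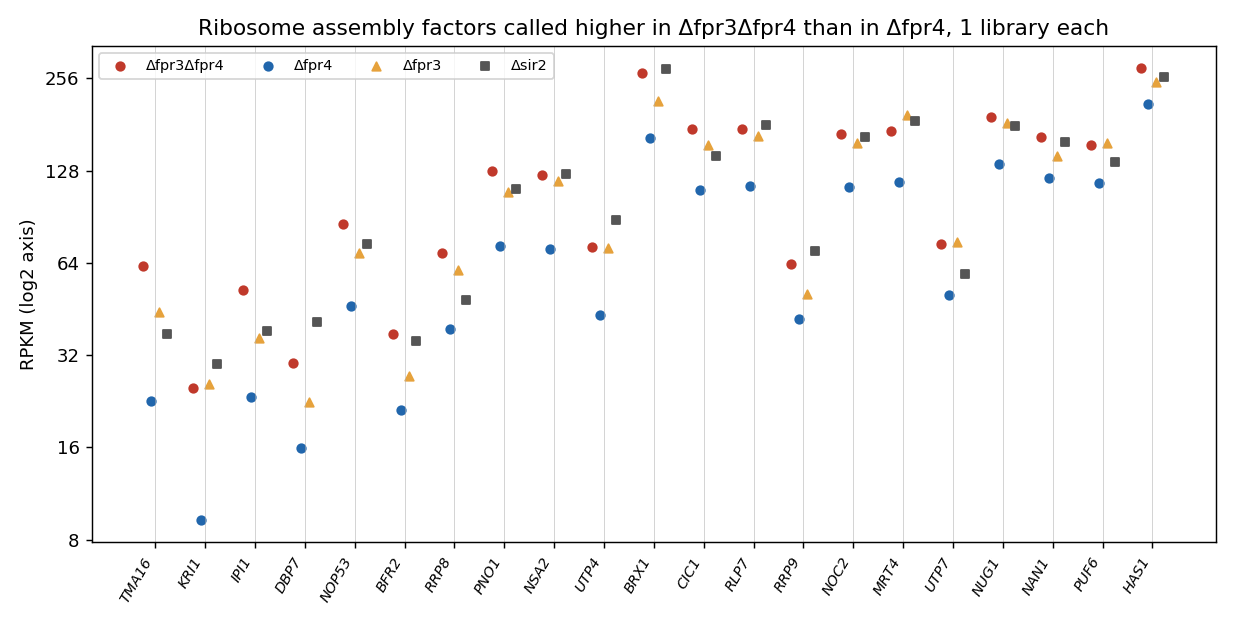
RPKM, on a log2 axis, of the 21 ribosome assembly factors called higher in Δ*fpr3*Δ*fpr4* than in Δ*fpr4*, in order of their log2 ratio. Each symbol is 1 library with no error to show, and the Δ*fpr4* symbol (blue) is the lowest of the 4 for all 21 genes.

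The lists of machinery next to ribosome assembly held few calls. None was lower, and with 2.67% of all tested genes called lower, lists of this size would hold few. Of the 23 tested genes of RNA polymerase I and its factors, 1 was called higher (4.35%, against 3.59% of all tested genes), the polymerase subunit gene *RPA49*, with 260 reads in Δ*fpr3*Δ*fpr4*, against 225 in Δ*fpr4* (log2 ratio 0.39). The list's median was 0.03. Of the 25 genes of TRAMP, the nuclear exosome and Nrd1, which trim and degrade nuclear RNA, 2 were called higher (8%) and the median was 0.16. These were *MTR4*, the helicase of TRAMP (295 reads in Δ*fpr3*Δ*fpr4*, against 250 in Δ*fpr4*, log2 ratio 0.42), and *CSL4*, an exosome cap subunit (70 reads in Δ*fpr3*Δ*fpr4*, against 47 in Δ*fpr4*, log2 ratio 0.75). *CSL4* lost its call under each of the 3 other scalings tried.

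Ribosomal protein genes as a group showed no such shift, with 2 called higher and 4 lower of 138 and a median log2 ratio of 0.03. These shares were 1.45% and 2.90%, against 3.59% and 2.67% of all tested genes. The 4 called lower were each 1 copy of a duplicated gene. *RPL9B* had 149 reads (RPKM 256) in Δ*fpr3*Δ*fpr4*, against 498 reads (RPKM 752) in Δ*fpr4*, a log2 ratio of -1.55 (interval -1.83 to -1.29, exact binomial test, adjusted p = 8.09e-33). Its copy *RPL9A* had an RPKM of 2506 in Δ*fpr3*Δ*fpr4*, against 2168 in Δ*fpr4*. *RPL9B* was also lower in Δ*fpr3*Δ*fpr4* than in Δ*fpr3* (RPKM 543) and Δ*sir2* (RPKM 647).

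In the other pairs, too, a single copy was called lower and its partner was not called. *RPL7B* had an RPKM of 49.2 in Δ*fpr3*Δ*fpr4*, against 97 in Δ*fpr4*, a log2 ratio of -0.97, while that of *RPL7A* was 0.07. *RPS14B* had an RPKM of 196 in Δ*fpr3*Δ*fpr4*, against 369 in Δ*fpr4*, a log2 ratio of -0.91, with -0.16 for *RPS14A*. Both *RPS14A* (lower) and *RPL9A* (higher) passed the chi-square test on reads but not 1.3-fold. *RPL8A* had an RPKM of 723 in Δ*fpr3*Δ*fpr4*, against 1066 in Δ*fpr4*, a log2 ratio of -0.56, with -0.05 for *RPL8B*. In each pair the copy called lower was the less expressed one in both libraries. The 4 genes stayed called with halved reads, and for all 4 the Δ*fpr3* and Δ*sir2* values were nearer to Δ*fpr4* than to Δ*fpr3*Δ*fpr4*. *RPL9B* and *RPL8A* are 94.7% and 95.1% identical to their copies over at least 50% of their length, and *RPS14A* matches *RPS14B* at 92.7% over at least 50% of its own length. The part of reads that could come from either copy was not tested. *RPS23A* (404 reads in Δ*fpr3*Δ*fpr4*, against 319 in Δ*fpr4*) and *RPL41B* (165 reads in Δ*fpr3*Δ*fpr4*, against 122 in Δ*fpr4*) were called higher, with log2 ratios of 0.53 and 0.62. *RPL41B* is 98.7% identical to its copy *RPL41A* over at least 50% of its length, so the same limit holds for its reads. *RPL41A* had a log2 ratio of 0.22 and was not called.

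Of all lists read, amino acid synthesis held the most calls that stayed with halved reads. Of 78 tested, 12 were called higher (15.4%, against 3.59% of all tested genes) and 2 lower (2.56%, against 2.67%). The median log2 ratio was 0.15, and 8 of the 12 stayed called with halved reads.

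*ARG7*, the mitochondrial ornithine acetyltransferase, had 96 reads in Δ*fpr3*Δ*fpr4*, against 38 in Δ*fpr4*, a log2 ratio of 1.49 (interval 0.97 to 2.11). *ARG1*, argininosuccinate synthetase, had 65 reads in Δ*fpr3*Δ*fpr4*, against 32 in Δ*fpr4*, a log2 ratio of 1.17 (interval 0.58 to 1.87). A list of 10 arginine genes was drawn up after these values were seen. Of these, 4 were called higher (40%, against 3.59% of all tested genes) and 0 lower, with a median of 0.78. *ARG3* had 6 reads in Δ*fpr3*Δ*fpr4*, against 0 in Δ*fpr4* and was not called. The other uncalled genes of this list included *ARG2*, with 12 reads in Δ*fpr3*Δ*fpr4*, against 31 in Δ*fpr4* (log2 ratio -1.08).

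Outside arginine, *TYR1*, which makes a tyrosine precursor, had 60 reads in Δ*fpr3*Δ*fpr4*, against 37 in Δ*fpr4*, a log2 ratio of 0.86. Branched-chain, histidine and aspartate-family genes called higher were *LEU1*, *LEU4*, *LEU9*, *BAT1*, *HIS1* and *HOM3*, named after their values were seen, with log2 ratios from 0.39 (*LEU1*) to 0.69 (*HOM3*). The 2 genes called lower were *PRO3* (126 reads in Δ*fpr3*Δ*fpr4*, against 201 in Δ*fpr4*, log2 ratio -0.48) and *LYS9* (156 reads in Δ*fpr3*Δ*fpr4*, against 243 in Δ*fpr4*, log2 ratio -0.45). *PTR2*, a peptide transporter and the 1 called member of the 26 tested amino acid permeases and sensors, was lower, with a log2 ratio of -0.41. That is 3.85% of that list, against 2.67% of all tested genes called lower.

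The stretch before *ARG7* is shown with the Gcn4 core TGACTC in capitals.

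*ARG7* (chrXIII:396516-396541, minus strand): acaggtaggaTGACTCactgcgtaat

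Within 250 bases of the start codon, 50% of the 78 amino acid genes held these letters, and so did 6 of the 12 called higher. The share over all 4739 windows was 6.58%. Over the 170 genes called higher, which include these 12, it was 9.41% (16 genes). *GCN2*, the kinase that raises Gcn4 synthesis when amino acids run short, had 85 reads in Δ*fpr3*Δ*fpr4*, against 153 in Δ*fpr4*, a log2 ratio of -0.63.

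**Figure D3:**
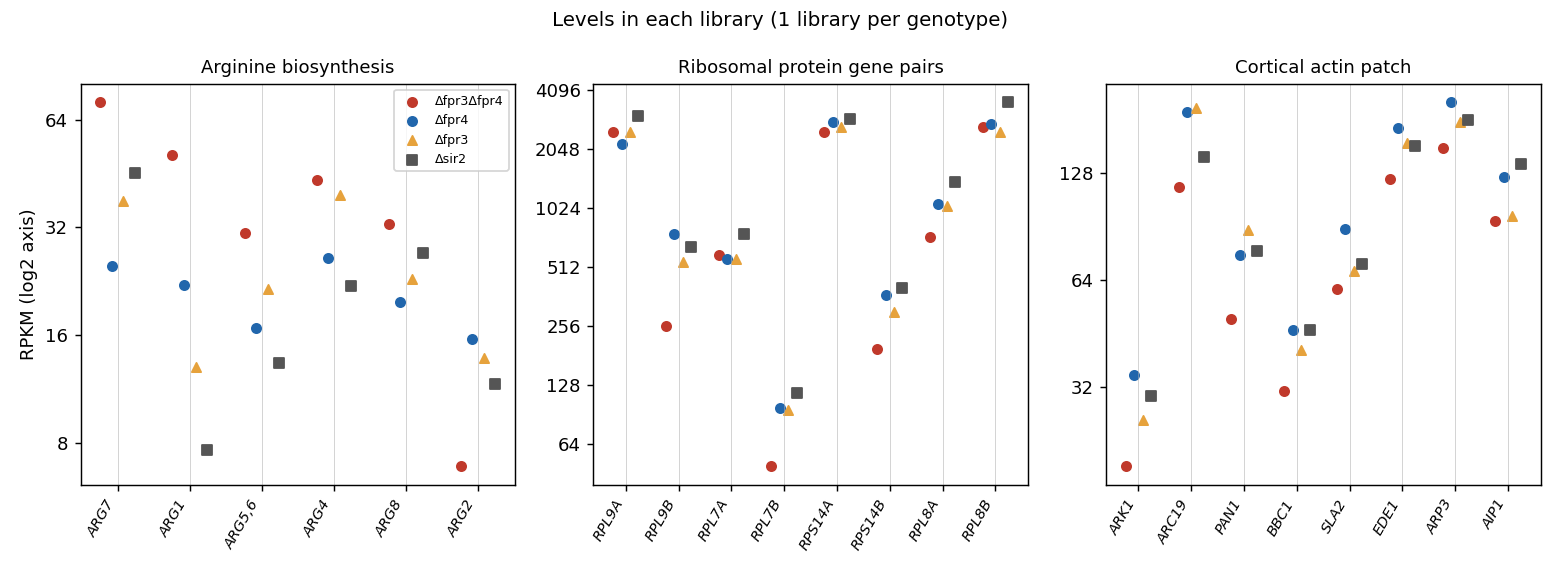
RPKM on log2 axes in 4 libraries for 6 arginine genes, 4 pairs of ribosomal protein genes and the 8 actin patch genes called lower in Δ*fpr3*Δ*fpr4* than in Δ*fpr4*. Each symbol is 1 library, and the Δ*fpr3*Δ*fpr4* symbol (red) is lowest for *RPL9B*, *RPL7B*, *RPS14B* and *RPL8A*, and highest for *ARG7* and *ARG1*.

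Genes of the cortical actin patch, where endocytosis begins, gave calls in the lower direction. This list of 49 was also drawn up after the values were seen: 8 were called lower (16.3%, against 2.67% of all tested genes), 0 were called higher, 37 of the 49 ratios lay below 0, and the median log2 ratio was -0.26. *EDE1*, an early scaffold of endocytic sites, had 515 reads in Δ*fpr3*Δ*fpr4*, against 821 in Δ*fpr4*, a log2 ratio of -0.48 (interval -0.65 to -0.32). *PAN1*, which activates the Arp2/3 complex, had 223 reads in Δ*fpr3*Δ*fpr4*, against 384 in Δ*fpr4*, a log2 ratio of -0.59 (interval -0.84 to -0.35). Both stayed called with halved reads. The others were *ARK1*, *ARC19*, *BBC1*, *SLA2*, *ARP3* and *AIP1*, with log2 ratios from -0.82 to -0.41, and the Δ*fpr3* value was nearer to Δ*fpr4* than to Δ*fpr3*Δ*fpr4* for 6 of the 8.

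Chaperones of protein folding were lower where they were called. Of 41 heat shock proteins and chaperones, 4 were called lower (9.76%, against 2.67% of all tested genes) and 0 higher, with a median of -0.12. *HSP82*, an inducible Hsp90, had 162 reads in Δ*fpr3*Δ*fpr4*, against 319 in Δ*fpr4*, a log2 ratio of -0.78, while its copy *HSC82*, 91.8% identical, had 4336 reads in Δ*fpr3*Δ*fpr4*, against 4862 in Δ*fpr4*. *SSA1* (Hsp70) had 1341 reads in Δ*fpr3*Δ*fpr4*, against 2089 in Δ*fpr4*, a log2 ratio of -0.45, and *HSP60*, the mitochondrial chaperonin, 421 reads in Δ*fpr3*Δ*fpr4*, against 696 in Δ*fpr4*, a log2 ratio of -0.54. *SCJ1*, a DnaJ protein of the endoplasmic reticulum, had 9 reads in Δ*fpr3*Δ*fpr4*, against 38 in Δ*fpr4*, a log2 ratio of -1.77 (interval -3.12 to -0.82). *HSP82*, *SSA1* and *HSP60* stayed called with halved reads, and *SCJ1* did not.

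Ratios of glycolysis genes lay below 0 for all but 1 gene, mostly by small steps. Of 31 tested genes, 30 had a ratio below 0 and the median was -0.19. The lowest log2 ratio, in a gene that was not called, was -2.77. The chi-square test passed for 16 genes, all of them lower in Δ*fpr3*Δ*fpr4*, but only 2 of those reached 1.3-fold. These were the glyceraldehyde-3-phosphate dehydrogenase genes *TDH2*, with an RPKM of 3193 in Δ*fpr3*Δ*fpr4*, against 4582 in Δ*fpr4* (log2 ratio -0.52), and *TDH1*, with 311 in Δ*fpr3*Δ*fpr4*, against 485 in Δ*fpr4* (log2 ratio -0.64). *TDH3*, the most expressed of the 3 copies, had an RPKM of 25143 in Δ*fpr3*Δ*fpr4*, against 25264 in Δ*fpr4*. *TDH2* is 95.8% identical to *TDH3* over at least 50% of its length.

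Among hexose transporters, *GAL2*, the galactose permease, had 0 reads in Δ*fpr3*Δ*fpr4*, against 11 in Δ*fpr4*, which is at least 3.22-fold lower in Δ*fpr3*Δ*fpr4*. It was the only one of 16 tested to be called (6.25%, against 2.67% of all tested genes called lower). Of 57 general stress and reserve carbohydrate genes, 1 was called higher (1.75%, against 3.59% of all tested genes) and 2 lower (3.51%, against 2.67%). Their median was -0.17. *GAD1*, glutamate decarboxylase, had a log2 ratio of 0.91, *DDR48* one of -0.51 and *TPS3*, a trehalose synthesis subunit, one of -0.41.

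**Figure D4:**
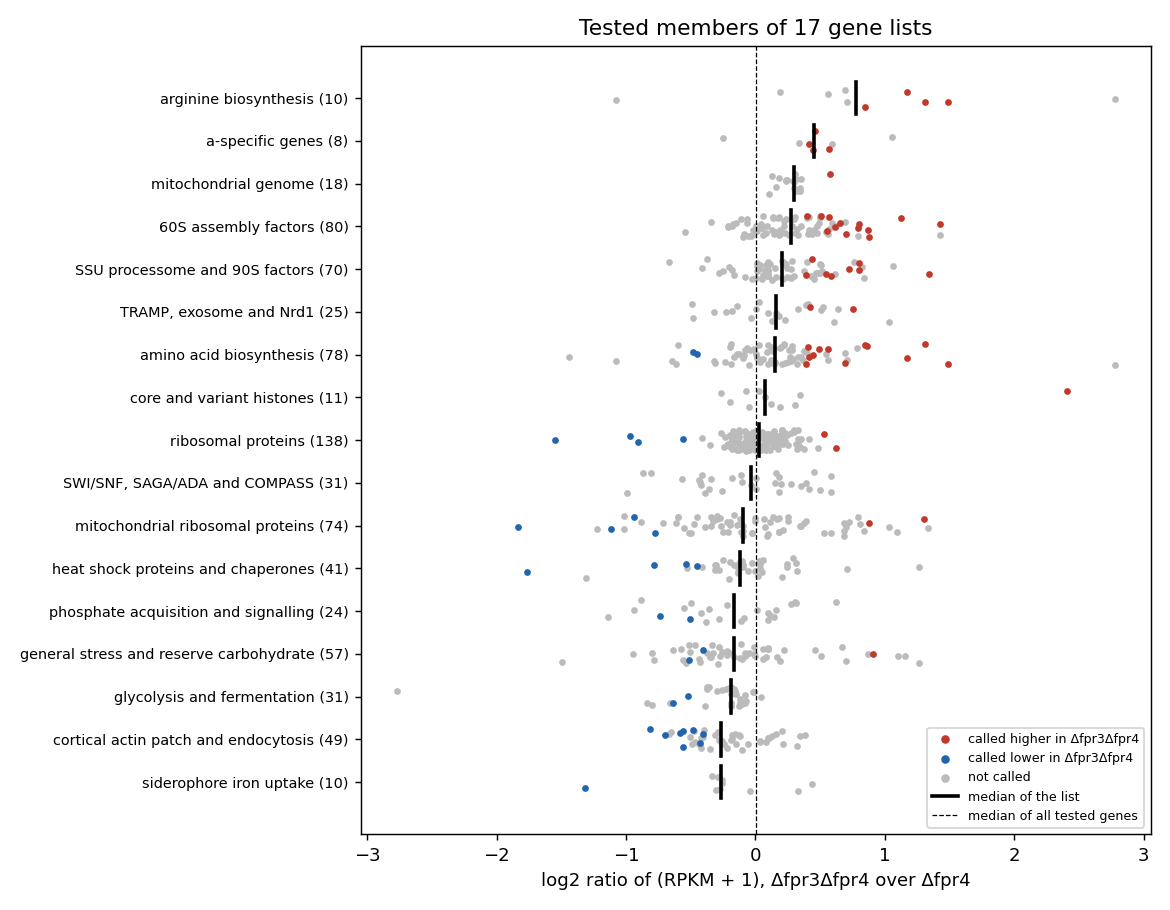
Log2 ratio, Δ*fpr3*Δ*fpr4* over Δ*fpr4*, of every tested member of 17 gene lists, with the number tested in brackets, red for genes called higher, blue for genes called lower and grey for the rest. Thick bars are list medians and the dashed line is the median of all tested genes (0.01), with the assembly factor lists at 0.27 and 0.21 and glycolysis at -0.19.

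Fpr3 is both a prolyl isomerase and a histone chaperone, so these families were read in full. Of 14 tested prolyl isomerases, *FPR3* itself was lower and *FPR2*, an FKBP of the secretory pathway, was called higher. *FPR2* had 58 reads (RPKM 141) in Δ*fpr3*Δ*fpr4*, against 34 reads (RPKM 72.5) in Δ*fpr4*, a log2 ratio of 0.95 (interval 0.32 to 1.61). *FPR1*, the cytosolic FKBP, had 494 reads in Δ*fpr3*Δ*fpr4*, against 523 in Δ*fpr4* and was not called. Each direction thus held 7.14% of the family, against 3.59% higher and 2.67% lower of all tested genes, and the family's median was -0.06.

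Besides *FPR3*, 24 histone chaperone genes were tested. *HIR1*, of the HIR complex that deposits histones outside replication, had 46 reads in Δ*fpr3*Δ*fpr4*, against 22 in Δ*fpr4*, a log2 ratio of 1.15 (interval 0.49 to 2.06). *CHZ1*, a chaperone of the variant H2A.Z, had 50 reads in Δ*fpr3*Δ*fpr4*, against 30 in Δ*fpr4*, a log2 ratio of 0.91, and lost its call under each of the 3 other scalings tried. *POB3*, a subunit of FACT, had 37 reads in Δ*fpr3*Δ*fpr4*, against 79 in Δ*fpr4*, a log2 ratio of -0.88. *NAP1*, a chaperone of H2A and H2B, had 125 reads in Δ*fpr3*Δ*fpr4*, against 215 in Δ*fpr4*, a log2 ratio of -0.59. Calls therefore went both ways, with 8% of the list higher and 12%, *FPR3* included, lower, against 3.59% and 2.67% of all tested genes. The list's median was -0.02. None of *HIR1*, *CHZ1*, *POB3* and *NAP1* stayed called with halved reads.

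Of 11 histone genes, *CSE4*, the centromeric H3 variant, was called higher, on few reads. It had 17 reads (RPKM 24.4) in Δ*fpr3*Δ*fpr4*, against 3 reads (RPKM 3.78) in Δ*fpr4*, a log2 ratio of 2.41 (interval 0.90 to 5.10). Its RPKM was 14.6 in Δ*fpr3* and 29.2 in Δ*sir2*, so the Δ*fpr4* library held the lowest of the 4 values. In the list of 74 kinetochore and segregation genes, *HSK3*, of the Dam1 complex, had 18 reads in Δ*fpr3*Δ*fpr4*, against 4 in Δ*fpr4* (log2 ratio 2.29) and *MPS1*, a checkpoint kinase, had 27 reads in Δ*fpr3*Δ*fpr4*, against 60 in Δ*fpr4* (log2 ratio -0.91). Of that list, 2.70% were called higher and 1.35% lower, against 3.59% and 2.67% of all tested genes, and its median was -0.01.

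No member of SWI/SNF, SAGA/ADA or COMPASS was called among 31 tested, and their ratios ran from -0.99 to 0.59. Of 24 genes of histone deacetylases and silencing, *HOS3* was called lower, with 32 reads in Δ*fpr3*Δ*fpr4*, against 83 in Δ*fpr4* (log2 ratio -1.14). That is 4.17% of the list, against 2.67% of all tested genes called lower, and the list's median was -0.12. The NuA3 subunit gene *NTO1* and the INO80 subunit gene *IES5* were among the 12 largest rises, with log2 ratios of 1.55 and 1.53 on 43 and 26 reads in Δ*fpr3*Δ*fpr4*, against 15 and 10 reads in Δ*fpr4*.

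The phosphate and iron lists held few calls, all of them lower in Δ*fpr3*Δ*fpr4*, and none stayed called with halved reads. Of 24 phosphate genes, 2 were called lower (8.33%, against 2.67% of all tested genes), *PHO5*, the secreted acid phosphatase, and *GDE1*, a glycerophosphocholine phosphodiesterase. *PHO5* had 122 reads (RPKM 86.1) in Δ*fpr3*Δ*fpr4*, against 198 reads (RPKM 123) in Δ*fpr4*, a log2 ratio of -0.51 (interval -0.85 to -0.18). The median of the list was -0.16. None of the 12 genes of polyphosphate and inositol pyrophosphate synthesis was called. Of 10 siderophore genes, 1 was called lower (10%, against 2.67% of all tested genes), with a list median of -0.27. It was *ARN2*, a siderophore transporter, with 20 reads in Δ*fpr3*Δ*fpr4*, against 60 in Δ*fpr4* (log2 ratio -1.32). Of the 23 genes in the reductive iron and copper list, 1 was called lower (4.35%, near the 2.67% of all tested genes). It was *FRE1*, a surface reductase, with 97 reads in Δ*fpr3*Δ*fpr4*, against 178 in Δ*fpr4* (log2 ratio -0.68).

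Mating-type genes were read as a check of cell type and gave calls of their own. The a-specific list held 8 genes, with *ASG7* and *AXL1* set beside the markers proper. Of these 8, 4 were called higher (50%, against 3.59% of all tested genes) and 0 lower. The 4 were the markers *STE2*, *MFA2* and *STE6* and, set beside them, *AXL1*, which is not taken here as a marker of a cells. With halved reads, 1 of the 4 stayed called. The median log2 ratio of the list was 0.46. *STE2*, the alpha-factor receptor, had 1046 reads (RPKM 800) in Δ*fpr3*Δ*fpr4*, against 873 reads (RPKM 586) in Δ*fpr4*, a log2 ratio of 0.45 (interval 0.32 to 0.58), and stayed called with halved reads. *AXL1*, *MFA2* and *STE6*, which process, encode and export a-factor, had log2 ratios of 0.57, 0.46 and 0.42. *BAR1*, the protease that degrades alpha-factor, had 256 reads in Δ*fpr3*Δ*fpr4*, against 348 in Δ*fpr4* and was not called. Among 26 haploid-specific and pheromone genes, *GPA1*, the pheromone G alpha subunit, was the 1 called, with 63 reads in Δ*fpr3*Δ*fpr4*, against 39 in Δ*fpr4* (log2 ratio 0.85). That is 3.85% of the list, near the 3.59% of all tested genes called higher. None of the 12 tested meiosis and sporulation genes was called. The a-specific markers were thus read in both libraries and the alpha-specific ones were at or near 0, apart from *SAG1*, with 16 reads in Δ*fpr3*Δ*fpr4*, against 18 in Δ*fpr4*.

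Respiratory genes split. In the mitochondrial genome, all 18 genes had a ratio above 0, with a median of 0.30, and *COX2*, a cytochrome oxidase subunit, was called, with 1054 reads in Δ*fpr3*Δ*fpr4*, against 806 in Δ*fpr4* (log2 ratio 0.57). Of these genes, 11 overlap another on the same strand, so their counts are uncertain. Of 54 nuclear genes of oxidative phosphorylation, 4 were called higher (7.41%, against 3.59% of all tested genes) and 3 lower (5.56%, against 2.67%). Their median log2 ratio was -0.05. *COX5B*, the hypoxic cytochrome oxidase subunit, had 29 reads in Δ*fpr3*Δ*fpr4*, against 13 in Δ*fpr4* (log2 ratio 1.31), *ATP14* a log2 ratio of 0.94, *SDH3* one of 0.50 and *NDE1*, an external NADH dehydrogenase, one of 0.39. *CYT1*, cytochrome c1, had 32 reads in Δ*fpr3*Δ*fpr4*, against 78 in Δ*fpr4* (log2 ratio -1.08), while *COX15* and *COR1* had log2 ratios of -0.73 and -0.49. *NDE1* fell under 1.3-fold with each of the 3 other scalings tried.

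Mitochondrial ribosomal proteins had 2 genes called higher, *PET123* (49 reads in Δ*fpr3*Δ*fpr4*, against 22 in Δ*fpr4*) and *MRPL35* (64 reads in Δ*fpr3*Δ*fpr4*, against 39 in Δ*fpr4*), and 4 lower of 74. The 4 were *MRPL49*, *RSM28*, *MRPL23* and *MNP1*, with log2 ratios from -1.84 to -0.77. The shares called were 2.70% higher and 5.41% lower, against 3.59% and 2.67% of all tested genes, and the list's median was -0.10.

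The remaining metabolic lists had calls in both directions, apart from thiamine. Of 36 genes of the TCA and glyoxylate cycles and gluconeogenesis, 3 were higher (8.33%, against 3.59% of all tested genes). Of the same 36, 1 was lower (2.78%, against 2.67%). *IDP3*, the peroxisomal isocitrate dehydrogenase, had 13 reads in Δ*fpr3*Δ*fpr4*, against 2 in Δ*fpr4* (log2 ratio 2.23, interval 0.75 to 6.08), *MAE1*, malic enzyme, had a log2 ratio of 0.42, and *ADR1*, an activator of glucose-repressed genes, one of -0.54. Of 31 genes of sulfur and methionine metabolism, *MET30* (0.93) and *SAM4* (0.48) were higher and *MHT1* lower, with 2 reads in Δ*fpr3*Δ*fpr4*, against 17 in Δ*fpr4* (log2 ratio -2.42, interval -6.06 to -0.82). Of 35 genes of ergosterol synthesis and sterol uptake, *HMG2* and *ERG7* were higher, with log2 ratios of 0.50 and 0.61, and *PDR11*, a sterol importer, was lower at -1.44. *SHM2*, a serine hydroxymethyltransferase that feeds nucleotide synthesis, was higher with an RPKM of 1166 in Δ*fpr3*Δ*fpr4*, against 855 in Δ*fpr4*, and *URA8*, a CTP synthase, was lower at -0.75. None of the 14 tested thiamine genes was called. The sulfur list had 6.45% higher and 3.23% lower, and the ergosterol list 5.71% and 2.86%, against 3.59% and 2.67% of all tested genes.

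At the cell surface, *TIP1* (0.60), *PRY3* (0.63) and *SCW4* (0.40) were higher and *PRY1* (-0.98) and *PRY2* (-0.55) lower among 63 cell wall genes. These were 4.76% and 3.17% of the list, against 3.59% and 2.67% of all tested genes. The multidrug and stress transport list had 3 higher of 33 (9.09%, against 3.59% of all tested genes). *PDR16* and *PDR12* had log2 ratios of 0.72 and 0.39, and *PDR12* lost its call with a pseudocount of 5. *PDR18* had 10 reads in Δ*fpr3*Δ*fpr4*, against 0 in Δ*fpr4*, at least 3.80-fold higher. Among cyclins and cell cycle genes, *DSE1*, a daughter-cell gene, was higher (0.43) and *CDC28*, the cyclin-dependent kinase, lower, with 26 reads in Δ*fpr3*Δ*fpr4*, against 58 in Δ*fpr4* (log2 ratio -0.95). *TIF11*, initiation factor eIF1A, was higher at 0.39, and *PRE2*, a proteasome subunit, lower at -0.47.

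The largest single differences among genes with at least 30 reads were spread over many functions. The 12 largest rises were *PEX27*, *CWC27*, *PCL10*, *IVY1*, *CMC2*, *NTO1*, *MRS2*, *IES5*, *MLC2*, *ARG7*, *CTL1* and *TMA16*. *PEX27*, a peroxisome gene, had 29 reads in Δ*fpr3*Δ*fpr4*, against 6 in Δ*fpr4*, a log2 ratio of 2.23 (interval 1.17 to 4.02). *PCL10*, a cyclin of the Pho85 kinase, had 29 reads in Δ*fpr3*Δ*fpr4*, against 8 in Δ*fpr4*, a log2 ratio of 1.86, and *MRS2*, a mitochondrial magnesium channel, had 36 reads in Δ*fpr3*Δ*fpr4*, against 13 in Δ*fpr4*, a log2 ratio of 1.54. All but *ARG7* rested on at most 43 reads in Δ*fpr3*Δ*fpr4*.

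After *FPR3*, the deepest falls were *YAP3*, *MFG1*, *CNB1*, *MRPL49*, *MOB1*, *SCJ1*, *BIG1*, *INP1*, *ASI2*, *COS8* and *RPL9B*. *YAP3*, a bZIP transcription factor, had 9 reads in Δ*fpr3*Δ*fpr4*, against 43 in Δ*fpr4*, a log2 ratio of -1.95 (interval -3.29 to -1.01). *MFG1*, a regulator of filamentous growth, had 11 reads in Δ*fpr3*Δ*fpr4*, against 53 in Δ*fpr4*, a log2 ratio of -1.95 (interval -3.17 to -1.13), and stayed called with halved reads. *CNB1*, the regulatory subunit of calcineurin, had 6 reads in Δ*fpr3*Δ*fpr4*, against 27 in Δ*fpr4*, and *MOB1*, of the mitotic exit network, had 11 reads in Δ*fpr3*Δ*fpr4*, against 47 in Δ*fpr4*, with log2 ratios of -1.88 and -1.81.

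Position along the genome showed no chromosome-wide shift. The median log2 ratio of the nuclear chromosomes ran from -0.09 (chromosome I) to 0.05 (chromosome VI), and a running median of 25 neighbouring genes from -0.30 to 0.47, where a change from 1 copy to 2 would give 1. Within 20 kb of a chromosome end, 82 genes were tested, with 2 called higher, 5 lower and a median of -0.10. The shares were 2.44% higher and 6.10% lower, against 3.59% and 2.67% of all tested genes. Of the genes next to *FPR3*, *WAR1*, *HMG1*, *RPL6A* and *TCB3* were not called, with log2 ratios from -0.12 to 0.39. Beside *FPR4*, *VMA6*, *RPL6B* and *LEU3* were not called, with log2 ratios from -0.23 to 0.05. *HMG2*, an HMG-CoA reductase gene that begins downstream of the *FPR4* locus, was called higher, with 309 reads in Δ*fpr3*Δ*fpr4*, against 248 in Δ*fpr4* (log2 ratio 0.50, interval 0.26 to 0.75). The part of the marker that replaces *FPR4* in the *HMG2* value was not tested.

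**Figure D5:**
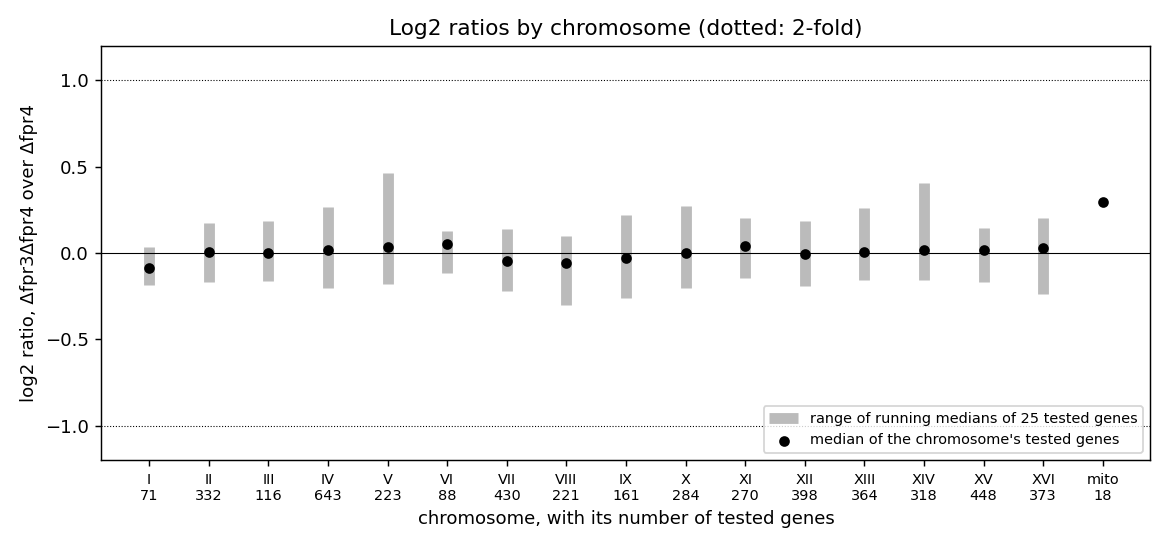
Median log2 ratio, Δ*fpr3*Δ*fpr4* over Δ*fpr4*, of the tested genes of each chromosome (points, with the number of genes under each name) and the range of running medians over 25 neighbouring genes (grey bars). All nuclear medians lie between -0.09 and 0.05, the mitochondrial genome stands at 0.30, and no grey bar reaches the dotted lines at 2-fold.

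How often a gene was called depended on its reads. Calls made up 3.33% of genes with up to 30 reads in the 2 libraries together, 6.92% of those with more than 100 and up to 300, and 4.66% of those with more than 1000. Between 300 and 1000 reads, 36 of 708 genes were called higher and 35 lower. The SD of the log2 ratio was 1.06 in the lowest tier and 0.19 in the highest. The share called was 4.2% in the shortest 25% of genes and between 6.50% and 7.38% in the longer ones. None of the 47 tRNA genes passed the filter on reads, and the 145 tested intron-containing genes outside the ribosomal proteins had 7 called higher and 3 lower. These were 4.83% and 2.07%, against 3.59% and 2.67% of all tested genes.

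Over all called genes, the other survey libraries lay near either library. Of the 171 genes called higher, the Δ*fpr3* value was nearer to Δ*fpr3*Δ*fpr4* for 97 and nearer to Δ*fpr4* for 74, and the Δ*sir2* value was nearer to Δ*fpr3*Δ*fpr4* for 85 and to Δ*fpr4* for 86. Of the 127 called lower, 53 were nearer to Δ*fpr3*Δ*fpr4* and 74 nearer to Δ*fpr4* in Δ*fpr3*. In Δ*sir2*, these counts were 48 and 79. The assembly factors, with 19 and 18 of 21 nearer to Δ*fpr3*Δ*fpr4*, lay above these shares, and the 4 ribosomal protein genes called lower, with 0 of 4, lay below them.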

How the data were processed

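The authors deposited, per gene, an unnormalized read count and an RPKM in a column named for another unit. Recomputing this RPKM from counts and gene lengths gave differences of up to 0.0696% where a gene had over 20 reads. Per the methods, the authors aligned paired-end reads to sacCer3 with BWA, applied a mapping quality threshold of 5, collapsed duplicated fragments and counted properly paired reads on the proper strand. The total counts, 1009336 in Δ*fpr3*Δ*fpr4*, against 1150091 in Δ*fpr4*, set the precision. The call rule follows the paper's, with 1.3-fold as in its survey. The pseudocount was 1. Members and lists were chosen with earlier results of these data known. Genes named are *FPR3*, *FPR4* and their 2 neighbours on each side, the 12 largest and smallest ratios among called genes with at least 30 reads, and up to 4 called members per list and direction. Others were picked after their values were seen. The values of 1 called gene are not reported here, though it stays in the counts. Tests were run with scipy 1.17.1, alternatives with edgeR 4.0.16 and DESeq2 1.42.0, and copies were found with blastn 2.17.0. Of the genes, 5041 matched the R64 annotation by name. Of the 298 called genes, 9 have a copy of at least 90% identity and 0 overlap another gene on their strand.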

Additional observations from a re-analysis of the deposited data

How the results depend on the processing

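The 298 calls, 171 higher and 127 lower in Δ*fpr3*Δ*fpr4*, and the 21 assembly factors called higher stayed within 1.5 times their number under the exact binomial test, pseudocounts of 0.1 and 5, no filter, an RPKM of at least 10 in one library, more than 5 reads in each, 3 other scalings, and without mitochondrial genes or (added after seeing the data) near-identical copies. They were 107, 61, 46 and 3 at 2-fold, and 1709, 882, 827 and 55 with no test on reads. With edgeR's exact test at an assumed variation of 0.1 they were 11, 5, 6 and 0, and with reads halved, added after seeing the data, 38, 23, 15 and 2. At 1.5-fold, 214 genes were called, with 13 assembly factors. The other scalings shifted all ratios by at most 0.01 (log2). No called gene named in the report changed direction under the pseudocounts or scalings. No paired analysis was possible because each genotype has 1 library, and no replicate could be left out.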

Other observations

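The families given here were picked after their values were seen. Of 10 tested *COS* genes, a family found near chromosome ends, 3 were called lower (30%, against 2.67% of all tested genes) and 0 higher. With halved reads, 1 of the 3 stayed called. *COS8* had 21 reads (RPKM 18.2) in Δ*fpr3*Δ*fpr4*, against 76 reads (RPKM 57.7) in Δ*fpr4*, and RPKM values of 20.8 in Δ*fpr3* and 107 in Δ*sir2*. *COS1* had 16 reads in Δ*fpr3*Δ*fpr4*, against 46 in Δ*fpr4*, and *COS6* had 136 reads in Δ*fpr3*Δ*fpr4*, against 219 in Δ*fpr4*. *COS1* and *COS6* each have a copy of about 91.7% identity, and the median log2 ratio of the family was 0.10.

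Of 25 peroxin genes, which build peroxisomes, 3 were called higher (12%, against 3.59% of all tested genes) and 0 lower, with a median of 0.07. With halved reads 0 of the 3 stayed called, while *PEX27* stayed called with the assumed variation of edgeR. *PEX10*, a ubiquitin ligase subunit, had 37 reads in Δ*fpr3*Δ*fpr4*, against 15 in Δ*fpr4*, a log2 ratio of 1.42. *PEX31* had 49 reads in Δ*fpr3*Δ*fpr4*, against 26 in Δ*fpr4*, a log2 ratio of 1.06. Of 16 genes of glycine cleavage and one-carbon metabolism, 3 were called higher (18.8%, against 3.59% of tested genes) and 1 lower (6.25%, against 2.67%). *GCV2*, a glycine decarboxylase subunit, had 463 reads in Δ*fpr3*Δ*fpr4*, against 274 in Δ*fpr4*, a log2 ratio of 0.94 (interval 0.73 to 1.17), and *GCV1* had 93 reads in Δ*fpr3*Δ*fpr4*, against 48 in Δ*fpr4*, a log2 ratio of 1.12. *FOL1*, of folate synthesis, was called lower with 82 reads in Δ*fpr3*Δ*fpr4*, against 144 in Δ*fpr4*.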
